A study of Mus musculus with 7 samples.

Results

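Probe set 17548705 of the Affymetrix Mouse Gene 2.0 ST array reads an unnamed transcript that the annotation places on distal Chr 8. Its difference between islets of the 2 mouse strains of this study was the largest decrease on the array. It is described here with Tubb3, Mc1r and Def8, the named genes that flank it, so that 4 of the 34351 annotated probe sets are covered. The unnamed transcript was chosen for its strain difference, which is therefore given as a description without a test. The 3 neighbours were chosen by their position and were tested. The study compared islet RNA of mice that differ in their resistance to alloxan, a beta cell toxin that acts through free radicals. There were 4 pools of NOD_Idd22 islets and 3 pools of NOD-Rag1 islets. NOD_Idd22 mice are the congenic strain NOD.ALRc8(D8Mit293-D8Mit137), NOD mice that carry a segment of Chr 8 of the ALR strain between these markers and that have intact Rag1. NOD-Rag1 mice carry a null Rag1 allele on the NOD background, lack mature T and B cells, and are free of insulitis; no plain NOD group was analysed here. Each pool held islets of 2 mice aged 10 to 12 weeks, so a value is that of a pool and not of an animal. The strains thus differed in the Chr 8 segment and in Rag1 at once, and these cannot be told apart.

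A probe set is a group of short probes that read the same stretch of RNA, and the deposited values are on a log2 scale, on which a difference of 1 is a doubling. Mouse chromosomes hold many proviruses, copies of retroviruses that entered the germ line, and most of them are kept silent by DNA methylation and by repressive histone marks. C57BL/6J, the strain of the mouse reference genome, carries an ecotropic murine leukemia provirus on Chr 8 named Emv2, and transcripts of ecotropic viruses are known to be raised in C57BL/6 mice that lack antibodies, Rag1-deficient mice among them. NOD mice are known to carry another ecotropic provirus, Emv30. The files used here give this transcript no name, and they give neither the position of Emv2 nor the sequences of the probes, so whether this transcript belongs to an endogenous retrovirus was not tested. Whether the probes match only the annotated place on Chr 8 was not tested either, so the signal cannot be given to that place with certainty. Among the neighbours, Tubb3 encodes the neuronal class of beta-tubulin, Mc1r encodes the receptor through which melanocortins direct melanocytes to make dark pigment, and Def8 encodes a protein that in osteoclasts takes part in the positioning of lysosomes.

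The probe set spans 2761 bases of Chr 8, from 123425878 to 123428638, in coordinates that match RefSeq gene positions of GRCm38. The deposited annotation gives it no gene symbol, no accession and no name. It starts 3.86 kb after the end of Tubb3 (Chr 8, 123411424 to 123422015) and 14.98 kb after the end of Mc1r (Chr 8, 123407082 to 123410901), and it ends 14.32 kb before the start of Def8 (Chr 8, 123442956 to 123463899). The interval between Tubb3 and Def8 measures 20.94 kb and holds 0 RefSeq genes. This was also the only annotated probe set within it (1 in all). It starts distal to D8Mit137, the distal marker of the ALR segment, and so outside that segment as the study describes it. How far ALR DNA reaches beyond the marker was not tested. The name of the NOD-Rag1 strain, NOD.129S7(B6)-Rag1tm1Mom, records 129S7 and B6 donors, and which strain's DNA either group carried at this locus was not tested. The marker positions are given in NCBI build 37 and were not converted, so this order was read across builds.

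The arrays differed in ways that the strains did not explain. The lower quartile of the values was 2.49 to 2.50 in NOD_Idd22 replicate 1 and in NOD-Rag1 replicates 2 and 3, and 2.64 to 2.68 in the other 4 pools, so values are also given within each of these sets. NOD-Rag1 replicate 1 had an Xist value of 2.56, against 9.69 to 10.28 in all other pools, and a Ddx3y value of 6.25, against 1.99 to 2.08. In these genes that pool read as male and the others as female. The labels give no sex, so sex may not be balanced between the strains. The Rag1 probe set read 3.25 to 3.87 in NOD_Idd22 pools and 3.63 to 4.21 in NOD-Rag1 pools. Whether it lies in the deleted part of the gene was not known, so it checks nothing about the labels. Of all probe sets, 52.5% had exactly the same value in 2 or more pools, which makes the spread of some genes very small.

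The unnamed transcript was low in all congenic pools and high in all Rag1-deficient pools. Its values were 3.87, 3.93, 4.06 and 4.71 in NOD_Idd22 replicates 1 to 4, and 10.85, 9.91 and 10.67 in NOD-Rag1 replicates 1 to 3. NOD_Idd22 replicate 4 was the highest of its strain and NOD-Rag1 replicate 2 the lowest of its own, and even these stood 5.20 log2 units apart. The pools of the strains did not overlap, which was also true of 7.17% of all probe sets, and of 2.74% in the direction lower in NOD_Idd22. The mean was 4.14 ± 0.39 in NOD_Idd22 islets (SD, n = 4 pools) and 10.48 ± 0.49 in NOD-Rag1 islets (SD, n = 3 pools). The difference, -6.33 on the log2 scale, corresponds to an 80.6-fold lower value in NOD_Idd22. Within a strain the pools spanned 0.85 in NOD_Idd22 and 0.93 in NOD-Rag1, so the difference was several times the spread between pools. In bulk islet RNA, fewer cells of a type and less RNA per cell cannot be told apart. The files hold no detection calls, so whether the NOD_Idd22 values lie above background is not known and the fold is that of the measured values.

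**Figure D1:**
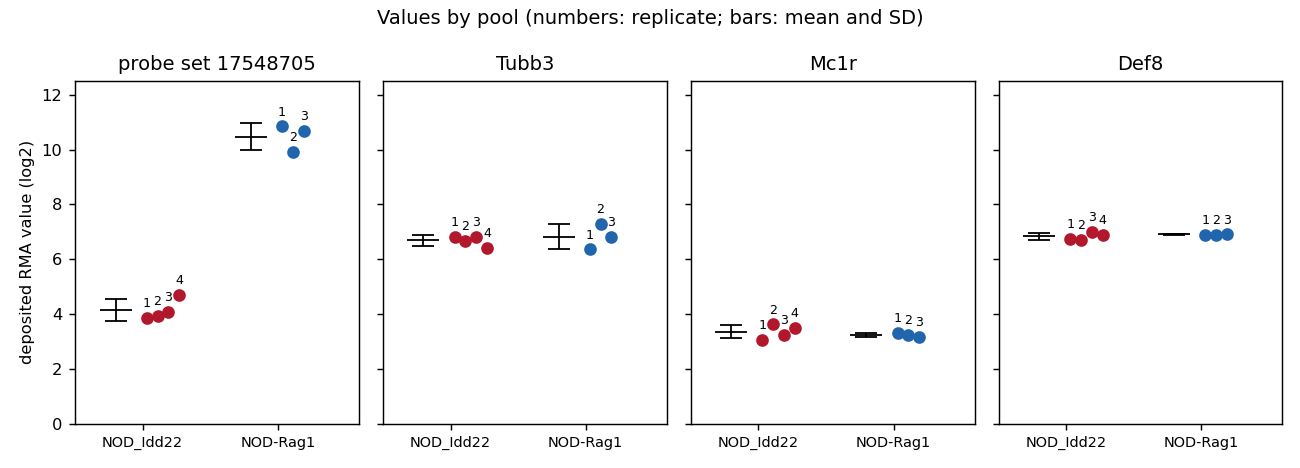
Deposited RMA values (log2, vertical axis) of the unnamed transcript, Tubb3, Mc1r and Def8 in each pool of NOD_Idd22 and NOD-Rag1 islets, with points numbered by replicate and bars for the mean and SD. The unnamed transcript lies at 3.87 to 4.71 in NOD_Idd22 and at 9.91 to 10.85 in NOD-Rag1, while the pools of the 3 neighbours overlap; heights of different probe sets are not comparable.

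The gap was present in both sets of arrays, as it had to be for pools that did not overlap. Among the arrays with the higher lower quartile, the mean of 3 NOD_Idd22 pools was 4.23 and the value of NOD-Rag1 replicate 1 was 10.85, a difference of -6.61. Among the others, the value of NOD_Idd22 replicate 1 was 3.87 and the mean of 2 NOD-Rag1 pools was 10.29, a difference of -6.42. NOD-Rag1 replicate 1, which stands apart in Xist and Ddx3y, had the highest value of the transcript, and without it the difference was -6.15. Over 11 other ways of fitting, pools left out included, the difference ranged over -6.61 to -6.15. With replicate numbers as a block it equalled that without NOD_Idd22 replicate 4, so these 11 are not all separate.

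The decrease was the lowest value of the array in every fit run. The median log2 fold change of all probe sets was 0.02. The unnamed transcript was the only probe set (1 in all) with a log2 fold change below -3, whereas 87 lay over 3, and 3 probe sets had a change of larger size. The count below -3 rested on single pools, since it was 6 without NOD_Idd22 replicate 1, 4 without NOD-Rag1 replicate 1 and 2 without NOD-Rag1 replicate 2, and it was also 4 with array weights. The next in order was Gpnmb, a glycoprotein of lipid-laden macrophages and of melanosomes, at -2.87, with 5.80 ± 2.67 in NOD_Idd22 and 8.67 ± 1.03 in NOD-Rag1 (SD, n = 4 and 3 pools). The pools of Gpnmb overlapped, with 9.63 in NOD_Idd22 replicate 1 and 3.49 to 5.29 in the other NOD_Idd22 pools, against 7.60 to 9.65 in NOD-Rag1. Without NOD_Idd22 replicate 1, Gpnmb was at -4.15, still the next after the unnamed transcript. Olfr330, an olfactory receptor gene, followed at -2.77 (2.64 ± 1.39 and 5.41 ± 0.56), with pools that did not overlap. The mitochondrial tRNA gene mt-Ty and Hmox1, which encodes the heme-degrading enzyme heme oxygenase 1, came next at -2.53 and -2.27, and the pools of both overlapped. A further 6777 annotated probe sets have no gene symbol, and the lowest log2 fold change among them was -1.17.

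The genes on either side showed no such difference. Tubb3, the nearest, had values of 6.83, 6.66, 6.82 and 6.42 in NOD_Idd22 replicates 1 to 4 and of 6.36, 7.30 and 6.82 in NOD-Rag1 replicates 1 to 3. The NOD-Rag1 pools held both the lowest and the highest value of Tubb3. Its mean was 6.68 ± 0.19 in NOD_Idd22 (SD, n = 4 pools) and 6.83 ± 0.47 in NOD-Rag1 (SD, n = 3 pools), a log2 fold change of -0.14 (SE 0.22, 95% CI -0.67 to 0.38). The adjusted p of limma was 0.847, and an exact two-sided permutation test over the 35 splits of the pools gave p = 0.686, where the smallest possible p was 0.0286. The sign of this small difference was not stable. Within the array sets it was 0.28 (3 NOD_Idd22 pools and 1 NOD-Rag1 pool) and -0.23 (1 and 2 pools), and without NOD-Rag1 replicate 2 it was 0.09.

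Mc1r, the pigment receptor gene, had values of 3.07, 3.62, 3.24 and 3.50 in NOD_Idd22 replicates 1 to 4. Its values were 3.32, 3.23 and 3.15 in NOD-Rag1 replicates 1 to 3, all inside the range of the NOD_Idd22 pools. The mean was 3.36 ± 0.25 in NOD_Idd22 (SD, n = 4 pools) and 3.23 ± 0.08 in NOD-Rag1 (SD, n = 3 pools). The log2 fold change was 0.13 (95% CI -0.22 to 0.47), with a limma adjusted p of 0.786 and an exact permutation p of 0.457. It was 0.14 and -0.12 within the array sets.

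Def8, on the distal side, had values of 6.75, 6.72, 6.99 and 6.90 in NOD_Idd22 replicates 1 to 4 and of 6.90, 6.90 and 6.91 in NOD-Rag1 replicates 1 to 3. The NOD-Rag1 pools lay inside the range of the NOD_Idd22 pools. The mean was 6.84 ± 0.13 in NOD_Idd22 (SD, n = 4 pools) and 6.90 ± 0.0043 in NOD-Rag1 (SD, n = 3 pools). The very small SD in NOD-Rag1 goes with repeated values, since 3 of the 7 pools held exactly the same value of Def8, as did 2 of the pools for Tubb3. The log2 fold change was -0.06 (SE 0.09, 95% CI -0.28 to 0.16), with a limma adjusted p of 0.837 and an exact permutation p of 0.514. Within the array sets it was -0.03 and -0.16.

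Thus 0 of the 3 neighbours had an adjusted p under 0.05, against 0.157% of all probe sets, and 0 had an unadjusted p under 0.05 either in limma (9.48% of all probe sets) or in the unpaired test with equal variances (6.56%). The study's threshold, a log2 fold change of more than 0.5 in size at an unadjusted p under 0.05, was passed by 5.59% of all probe sets and by 0 of the neighbours. Of the 1920 probe sets past it, 68.2% were higher in NOD_Idd22, a split that turned to 44.5% of 2315 when each array was centred on its median, which moves all log2 fold changes down. The intervals of the neighbours leave room for differences of up to 0.67 log2 units for Tubb3, 0.47 for Mc1r and 0.28 for Def8. They do not show that the genes were expressed alike in the strains.

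The wider neighbourhood held no second decrease of this kind. Within 100 kb on each side there were 11 other annotated probe sets, 8 of them with a symbol, and their log2 fold changes lay between -0.25 and 0.40 with a median of 0.04. None of the 11 passed the study's threshold (0) or an adjusted p of 0.05 (0), against 5.59% and 0.157% of all probe sets. An unadjusted p under 0.05 was found for 1, in limma and in the unpaired test alike, against 9.48% and 6.56% of all probe sets. That was Dbndd1, a relative of the dysbindin gene, at 4.10 ± 0.12 in NOD_Idd22 and 3.79 ± 0.04 in NOD-Rag1 (SD, n = 4 and 3 pools). Its log2 fold change was 0.30 with an adjusted p of 0.394. It was the only probe set in this window (1 of 11) whose strains did not overlap, against 7.17% of all probe sets. Afg3l1, which encodes a mitochondrial protease subunit in mice, had the lowest log2 fold change (-0.25, adjusted p = 0.571). The actin nucleator gene Spire2 was at -0.19, Tcf25 at -0.10 and Gas8, a gene of motile cilia, at 0.04.

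Within 500 kb on each side, 7 of 42 other probe sets (16.7%) passed the study's threshold, 5 higher and 2 lower in NOD_Idd22 (3.81% and 1.78% of all probe sets), and 0 had an adjusted p under 0.05 in limma or in the unpaired test. An unadjusted p under 0.05 was found for 8 in limma and for 7 in the unpaired test, against 9.48% and 6.56% of all probe sets. The median log2 fold change was 0.05, near that of all probe sets. Among the lower ones was Rab4a, which encodes a GTPase of recycling endosomes. Rab4a was at 4.06 ± 0.17 in NOD_Idd22 and 4.58 ± 0.36 in NOD-Rag1 (log2 fold change -0.52, adjusted p = 0.464), and its pools did not overlap. Dpep1, a membrane dipeptidase gene, was at 0.56 (adjusted p = 0.448).

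A group of 4 that passed has no symbol in the deposited annotation and shares its spans with RefSeq 5S ribosomal RNA genes or pseudogenes, n-R5s127 (0.60), n-R5s136 (1.12), Rn5s-ps1 (1.13) and Gm23647 (1.13). The last pair had identical values in every pool, and 5S genes are near-identical copies, so these 4 are not independent readings and their signal cannot be given to a locus. They lie 159 to 198 kb distal to the unnamed transcript.

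**Figure D2:**
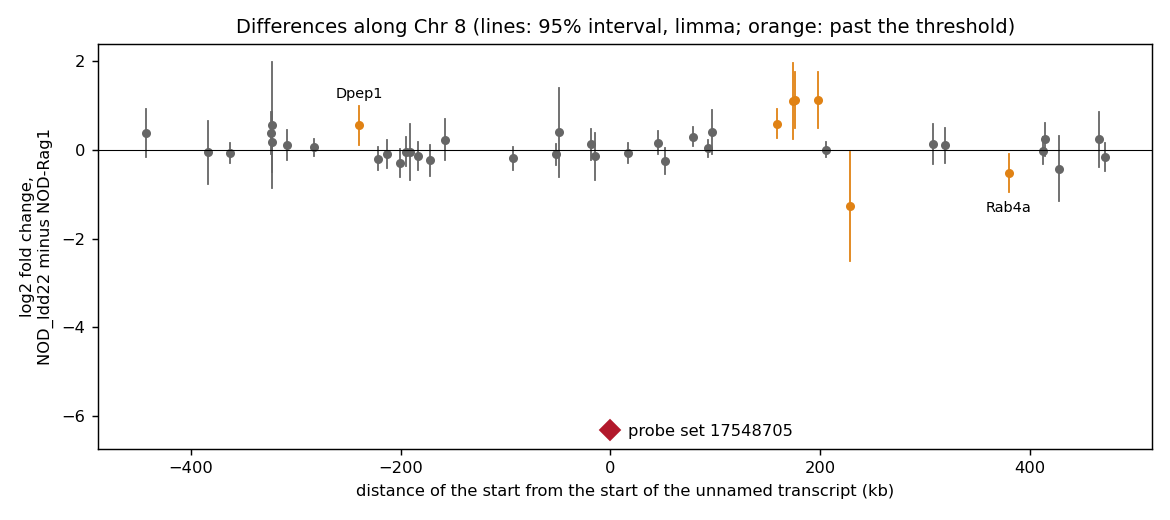
Log2 fold change (NOD_Idd22 minus NOD-Rag1, vertical axis) of the probe sets within 500 kb, by the distance of their start from that of the unnamed transcript in kb. Points carry 95% intervals from limma, and orange marks the 7 past the study's threshold; the unnamed transcript, drawn as a diamond without an interval, lies at -6.33 and the others between -1.27 and 1.13.

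The pattern over pools was then set against that of other genes. Likeness was measured by Pearson's r over the 7 pools, among the 788 other probe sets whose strain means lay at least 1 log2 unit apart. Of these, 116 were lower in NOD_Idd22, and 4 had an r over 0.9. The pools fall into 2 groups by strain, so r mostly restates the strain difference and carries no test. Tacr3, the receptor of neurokinin B, was the most like, with r = 0.97 (Spearman's rho 0.89). Tacr3 had values of 3.92, 3.24, 3.73 and 4.34 in NOD_Idd22 replicates 1 to 4 and of 5.79, 5.65 and 5.68 in NOD-Rag1 replicates 1 to 3. As for the unnamed transcript, NOD_Idd22 replicate 4 was the highest of its strain, NOD-Rag1 replicate 1 the highest and replicate 2 the lowest. NOD_Idd22 replicate 1 ranked otherwise, lowest of its strain for the unnamed transcript but above replicates 2 and 3 for Tacr3.

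After each strain was centred on its own mean, r for Tacr3 was 0.59. Smad9, a signal transducer of bone morphogenetic proteins, and Lgi2, a secreted leucine-rich repeat protein, followed at r = 0.95 each, with log2 fold changes of -1.20 and -1.85. Then came Dcaf12l1 (r = 0.91), Plekhg6 (0.89), Fam196a (0.88), the mesothelial gene Msln (0.88) and its relative and neighbour Mslnl (0.87). Over these 8 probe sets, the difference between strains lay between -1.90 and -1.02, and r after centring lay between -0.26 (Fam196a) and 0.63 (Msln). By Spearman's rho, 5 of the 8 were again among the most like, and Msln had the same rho as Tacr3 (0.89). Among the neighbours, Def8 had an r of 0.39 with the unnamed transcript, Tubb3 0.14 and Mc1r -0.31.

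At the other end stood immunoglobulin genes. Igkj1, a joining segment of the kappa light chain, had r = -0.99, with 11.18 ± 0.21 in NOD_Idd22 and 6.04 ± 0.25 in NOD-Rag1 (SD, n = 4 and 3 pools). The kappa constant region Igkc also had r = -0.99, with 11.60 ± 0.59 in NOD_Idd22 and 3.78 ± 0.29 in NOD-Rag1. The next probe set, 17284512, has no symbol and lies on Chr 12, at 114583569 to 114584002. Of the probe sets compared, 129 had an r under -0.9.

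**Figure D3:**
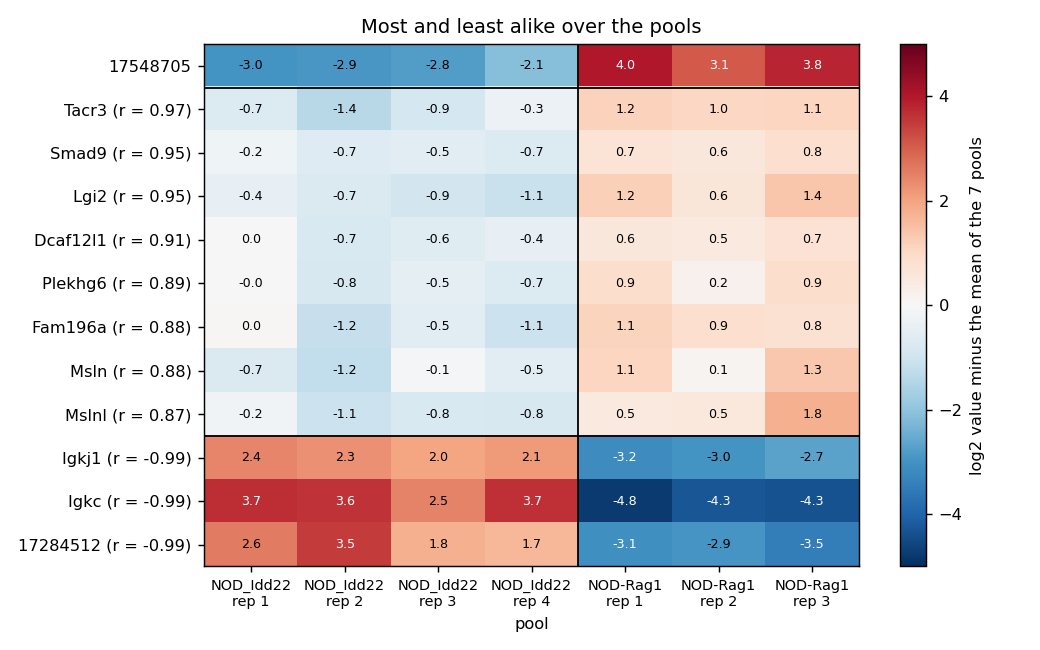
Log2 value of each pool minus the mean of the 7 pools (colour and printed value) for the unnamed transcript in the top row, the 8 probe sets most like it and the 3 least like it, with Pearson's r in the row label and pools in columns. The most like genes share the sign of the unnamed transcript in nearly all pools at a smaller size, and the immunoglobulin rows run the other way.

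Genes that act on retroviruses were looked at as lists. Of genes that keep proviruses silent, 28 of 29 listed were measured and 0 passed the study's threshold, with a median log2 fold change of -0.06 and a range of -0.39 to 0.39. The pools of 2 of them did not overlap, both higher in NOD_Idd22, against 4.43% of all probe sets. Atf7ip, a partner of the histone methyltransferase Setdb1, was at 8.46 ± 0.19 in NOD_Idd22 and 8.12 ± 0.08 in NOD-Rag1 (log2 fold change 0.34, adjusted p = 0.476). Dnmt1, the maintenance DNA methyltransferase, was at 7.21 ± 0.18 in NOD_Idd22 and 6.89 ± 0.09 in NOD-Rag1 (adjusted p = 0.489). Its partner Uhrf1 was at 0.39 and Pphln1, of the HUSH complex, at -0.31.

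All 4 entry receptors of murine retroviruses had values lower on average in NOD_Idd22, with a median of -0.45, and 0 passed the threshold. Slc7a1, the amino acid transporter that ecotropic viruses use, was at 7.13 ± 0.51 in NOD_Idd22 and 7.63 ± 0.19 in NOD-Rag1 (log2 fold change -0.51, adjusted p = 0.586), and its pools overlapped. Xpr1, the receptor of xenotropic and polytropic viruses, was at -0.44 (adjusted p = 0.463), Slc20a1 at -0.46 and Slc20a2 at -0.11. With each array centred on its median, 1 of the 4 passed the threshold, lower in NOD_Idd22. Under that setting 1285 of the 34351 probe sets passed in that direction, against 610 without centring.

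Of 26 genes that restrict or sense retroviruses, 7 passed the threshold, all of them higher in NOD_Idd22, against 3.81% of all probe sets in that direction. Centring the arrays left 5 and quantile normalization gave 8, where 1030 and 1157 of all 34351 probe sets passed in that direction. The pools of 7 did not overlap, again higher in NOD_Idd22, against 4.43% of all probe sets in that direction. The median of the list was 0.12. Ifitm3, an interferon-induced membrane protein, was at 7.76 ± 0.56 in NOD_Idd22 and 5.87 ± 0.21 in NOD-Rag1 (log2 fold change 1.89, adjusted p = 0.102). Tmem173, which encodes the DNA-sensing adaptor STING, was at 2.01 (adjusted p = 0.162), and the endosomal sensor Tlr9 was at 1.37 (0.253). Unc93b1, which brings Toll-like receptors to endosomes, was at 0.72 (0.360). Leukocytes express many of these genes, and the levels of B cell, T cell and macrophage markers are given with the other cell types. Captured retroviral genes that serve the host, such as Peg10 (0.13) and the syncytin gene Synb (0.16), had 7 of 8 members measured and 0 past the threshold. Their median was 0.07, and it was -0.05 with median centring and -0.04 with quantile normalization.

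The annotation texts of 13 probe sets mention a retrovirus, a provirus or a leukemia virus, most of them host genes named after a virus or for a part related to one. Of the 13, 2 were higher past the threshold and 0 lower, against 3.81% and 1.78% of all probe sets, and 0 had an adjusted p under 0.05. They were Sfpi1, the myeloid and B cell transcription factor PU.1 (0.78, adjusted p = 0.231), and the kinase gene Pim1 (0.68, adjusted p = 0.488). Erv3, the entry annotated as an endogenous retroviral sequence, was at 2.75 ± 0.10 in NOD_Idd22 and 2.67 ± 0.08 in NOD-Rag1, a log2 fold change of 0.08. Both means lay near the lower quartiles of the arrays (2.49 to 2.68). Without detection calls, whether Erv3 was expressed at all is not known. Mov10l1 (-0.40), Pim3 (-0.36), Asprv1 (0.23), Nynrin (0.17) and Tax1bp1 (0.12) were also among the 13.

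Genes that work with the neighbours or resemble them were looked at in the same way. Of melanocortin signalling and pigment genes, 20 of 21 were measured and 0 passed the threshold. Their median was 0.04, with Mgrn1, an E3 ubiquitin ligase, at -0.20 and the antagonist Agrp at 0.22. Pcsk1, the prohormone convertase of beta cells that also cleaves the melanocortin precursor, was at 0.47 and the melanosome gene Oca2 at 0.14. All 15 tubulin genes were measured, with 0 past the threshold and a median of 0.03. Of these, Tuba4a was at -0.54 (adjusted p = 0.645), Tuba1a at 0.28, Tubd1 at -0.18 and Tubg1 at -0.16. Under median centring and quantile normalization, the medians of both lists lay below 0, at -0.08 and -0.03 for melanocortin signalling and at -0.09 and -0.04 for tubulins.

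Of 11 genes related to Def8 or to lysosome positioning, 9 were measured and 1 passed the threshold, in the direction lower in NOD_Idd22, as did 1.78% of all probe sets. This was Arl8b, the small GTPase that couples lysosomes to kinesin, at 9.05 ± 0.37 in NOD_Idd22 and 9.56 ± 0.26 in NOD-Rag1 (log2 fold change -0.52, adjusted p = 0.525), and with quantile normalization it no longer did. Rilp, which couples lysosomes to dynein, was at 0.38 (adjusted p = 0.436), and its pools did not overlap. The lysosomal membrane genes Lamp1 and Lamp2 were at -0.26 and -0.33. Over the 7 lists, 109 genes were measured and 0 had an adjusted p under 0.05 in limma or in the unpaired test, with 15 and 9 at an unadjusted p under 0.05 (9.48% and 6.56% of all probe sets).

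**Figure D4:**
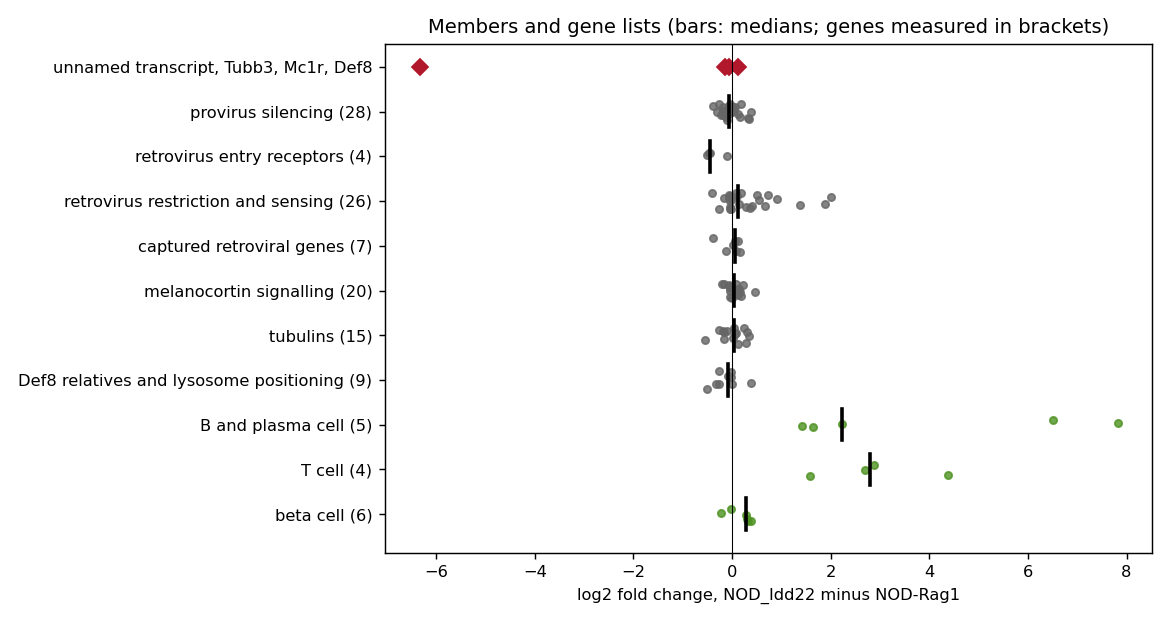
Log2 fold change (NOD_Idd22 minus NOD-Rag1, horizontal axis) of the unnamed transcript and its neighbours (diamonds, top row) and of each gene in 10 lists (points, with the number measured in brackets and the median as a bar). The unnamed transcript lies at -6.33, apart from the pathway lists in grey, and the B and T cell markers in green lie to the right of 0.

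Transcripts that mark other cell types also differed between the strains. All 5 measured B and plasma cell markers passed the threshold and their pools did not overlap, with a summed linear level of 2543 to 6951 in NOD_Idd22 and 73.5 to 94.6 in NOD-Rag1. All 4 T cell markers did so too, with 241 to 722 in NOD_Idd22 and 48.0 to 88.3 in NOD-Rag1. In that direction, higher in NOD_Idd22, 3.81% of all probe sets passed the threshold and 4.43% did not overlap. The unnamed transcript was lower in NOD_Idd22, and the part of B and T cells in its difference was not tested. Of 3 macrophage markers 2 were measured, and they lay on opposite sides of 0, with Csf1r at a log2 fold change of 1.14 and Cd68 at -0.37. Csf1r passed the threshold, the pools of both overlapped, and their sum was 177 to 1134 in NOD_Idd22 and 264 to 466 in NOD-Rag1.

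The 5 acinar markers also passed the threshold, at 2067 to 13304 in NOD_Idd22 and 163 to 1247 in NOD-Rag1. So did the 3 endothelial markers, at 589 to 1122 in NOD_Idd22 and 162 to 419 in NOD-Rag1. All of these were higher in NOD_Idd22, a direction in which 3.81% of all probe sets passed. The pools of 4 of the 5 acinar and of all 3 endothelial markers did not overlap, against 4.43% of all probe sets in that direction. Of 6 beta cell markers, 0 passed, and their sum was 8373 to 14159 in NOD_Idd22 and 9185 to 11564 in NOD-Rag1, so both strains carried the markers of the labelled tissue. Melanocyte markers, the cell type known for Mc1r, had 0 of 4 past the threshold and sums of 47.6 to 58.0 in NOD_Idd22 and 47.9 to 53.6 in NOD-Rag1. Without detection calls, whether the melanocyte markers were expressed in these islets is not known. Neuron and Schwann cell markers, for Tubb3, had 1 of 5 past the threshold and sums of 118 to 184 in NOD_Idd22 and 102 to 113 in NOD-Rag1. The part of these cell types in the difference of the unnamed transcript was not tested.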

How the data were processed

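Islet RNA of 4 NOD_Idd22 pools and 3 NOD-Rag1 pools was read on Affymetrix Mouse Gene 2.0 ST arrays. The deposited values are log2 expression values that the authors made by RMA (background correction, quantile normalization and a summary per probe set); its version is not given in the sources used here. The authors' table of the comparison also holds deposited log2 fold changes and deposited p-values, which were not used; its annotation gave symbols and coordinates, and the coordinates match RefSeq genes of GRCm38. Of 34472 probe sets, 34351 with annotation were tested and 121 were not. Dim probe sets were kept, and 0 columns lacked a sample.

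The strain difference was fitted by lmFit and eBayes of limma 3.58.1 under R 4.3.3, without a block and with Benjamini-Hochberg adjustment over all tested probe sets, and neighbours also by exact two-sided permutation. The limma step was tested on simulated data. Correlations, counts and plots were made in Python 3.11.15 with pandas 2.3.3, numpy 2.4.6, scipy 1.17.1 and matplotlib 3.10.9. Where a gene had several probe sets, its brightest one stood for it, and a probe set placed on an antisense sequence was not taken for its host gene. The members and gene lists were chosen with earlier results of these data known. Named were the members, probe sets with a symbol within 100 kb, those past the study's threshold within 500 kb, the 8 most and 3 least like, the 5 lowest of the array, up to 8 with a retroviral annotation text and up to 4 genes per pathway list by smallest p; 1 gene within 500 kb is not reported here.

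Alternatives were median centring, quantile normalization, brighter probe sets only, a trend and robust fit, array weights, the unpaired test with equal variances, the array sets or replicate numbers as a block, each pool left out, other windows, Spearman's rho and all probe sets of a gene. Since arrays yield no counts, precision depends on the number of pools. Nothing says that pools came from separate isolations, so p-values measure the spread between these pools.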

Additional observations from a re-analysis of the deposited data

Results flagged for a closer look

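Of 62 named features, 6 had a NOD_Idd22 pool far from the others by Dixon's test, which chance alone gives in about 1 of 20 groups. None of them was the unnamed transcript, Tubb3, Mc1r or Def8. NOD_Idd22 replicate 3 was low in Igkc, at 10.71 against 11.85 to 11.92 in the other NOD_Idd22 pools, and in Tubd1, at 4.55 against 4.88 to 4.91. NOD_Idd22 replicate 1 was high in Hmox1, at 8.19 against 4.53 to 4.69, and in Lamp1, at 10.90 against 10.54 to 10.60. For the nearby genes Tcf25 and Gas8, the other NOD_Idd22 pools held exactly the same value, so a small departure was enough. Tcf25 was at 9.43 in replicate 2, against 9.68 in the others, and Gas8 was at 6.37 in replicate 3, against 6.41 in the others.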

How the results depend on the processing

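The difference of the unnamed transcript kept its direction under every setting run on it and moved by less than the SD of a strain. It ranged over -6.61 to -6.15 when pools were left out. It was -6.45 with median centring, -6.35 with quantile normalization and -6.52 with the array sets as a block. The transcript was chosen for this difference, and its pools stood at least 5.20 log2 units apart. A kept direction was therefore fixed in advance, and these values only describe its size. Median centring moved the median of all log2 fold changes by -0.12. It shifts every log2 fold change by the same amount, so relative to that median the neighbours' differences cannot change. No neighbour passed an adjusted p of 0.05 in any fit run (Def8 0.465 to 0.980, Tubb3 0.462 to 0.995 and Mc1r 0.363 to 0.988), and Mc1r was too dim to be among the brighter probe sets. The difference of Tubb3 turned to 0.038 with the array sets as a block, and ranged from -0.38 to 0.094 when pools were left out (0.094 without NOD-Rag1 replicate 2), Mc1r from 0.04 to 0.22 and Def8 from -0.11 to -0.02; the cause was not tested.

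The count of probe sets at an adjusted p under 0.05 (54) was 31 with the array sets as a block, 233 with array weights, 97 among brighter probe sets and 1 by the unpaired test, and 10 to 258 when a pool was left out. The count past the study's threshold (1920) was 3560 with array weights and 1248 by the unpaired test, and 1264 to 3299 when a pool was left out. The share of nearby probe sets past that threshold (16.7%) was 0% within 100 kb and 9.59% within 1000 kb. The count below -3 (1) was 1 to 6 when a pool was left out, an alternative chosen after seeing the data. Of the 8 most like probe sets, 5 were shared with the Spearman ranking.

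Same-numbered pools did not deviate together (correlations of -0.35, -0.21 and -0.14). With few pools, and with arrays that also differed in their lower quartile, this cannot decide whether the numbers pair the samples. Nothing states that they do. With the replicate block the unnamed transcript was at -6.52, Tubb3 at -0.05, Mc1r at 0.08 and Def8 at -0.08. NOD_Idd22 replicate 4 has no NOD-Rag1 pool of its number, so these differences equal those without that pool. The block left 0 probe sets at an adjusted p under 0.05 and 1148 past the threshold. The number of pools and the lack of detection calls limit what can be said of dim probe sets.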
